A study of Caenorhabditis elegans with 4 samples.

Results

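The regions described here are the long stretches of the Caenorhabditis elegans genome in which no peak of RNA polymerase II was called. The peaks of 3 deposited lists were merged per chromosome into 7261 merged peaks, and the gaps between consecutive merged peaks were measured. A gap of at least 40 kb (40000 bp) was taken as a peak-free stretch. Of 7255 gaps, 605 were stretches (8.34%), and the other 6650 were shorter gaps. The ends of chromosomes, before the first and after the last merged peak, were not counted. The lists that chose the stretches also gave most values below, so these values describe the stretches and were not tested.

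The assay was chromatin immunoprecipitation with sequencing (ChIP-seq) of AMA-1, which is the largest protein of the RNA polymerase II complex, with an affinity-purified polyclonal rabbit antibody. Mixed-stage embryos of strain N2, labelled wild type and of mixed male and hermaphrodite sex, gave 2 libraries of AMA-1 ChIP DNA (replicates 1 and 2) and 2 of input DNA. All libraries share a growth protocol named for RNAi and the title tag RiIMB1, which is not spelled out, so the embryos cannot be read as untreated. The labels do not say whether the replicates came from separate cultures. Whole embryos hold many cell types, and a gene that is transcribed in few cells gives little signal in such a sample. Fewer cells with polymerase at a site and less polymerase per cell cannot be told apart. Each replicate has a list of broad peaks and the whole series has a list of narrow peaks, all in WormBase WS220 coordinates. A base outside every peak was not shown to lack polymerase, because the read depth behind the lists is unknown.

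RNA polymerase II transcribes messenger RNA genes, and AMA-1 signal collects at promoters and over transcribed gene bodies. In C. elegans the middle parts of the autosomes are rich in operons and widely expressed genes. The autosomal arms recombine more and carry more repeats and marks of heterochromatin. Chromosome V holds large families of chemoreceptor genes, most of which are known to be used in few neurons. On X, a condensin-based dosage compensation complex lowers transcription in hermaphrodite embryos, and few genes used in the germ line lie there.

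The stretches were few among the gaps and held much of the genome. Together they covered 44.96 Mb, or 44.9% of the chromosome spans (position 1 up to the furthest peak end on each chromosome). They made up 54.3% of all bases between peaks, whereas the 6650 shorter gaps made up 45.7% and 37.8% of the spans. The median stretch was 61.3 kb long (quartiles 49.5 and 85.8 kb), and the median shorter gap was 1379 bp (quartiles 426 and 6359.75 bp). Stretches became rarer with length when counted per kb of class width, as the classes from 100 kb up are wider. There were 292 of 40 to 60 kb, 137 of 60 to 80 kb, 61 of 80 to 100 kb, 93 of 100 to 150 kb, 16 of 150 to 200 kb and 6 above that.

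The threshold cut through a continuous distribution. The shortest stretches were those on IV from 5753226 to 5793419 (40194 bp), on V from 8490621 to 8530817 (40197 bp) and on X from 2919507 to 2959740 (40234 bp). The longest gaps left out were those on II from 3262517 to 3302494 (39978 bp), on V from 1331712 to 1371674 (39963 bp) and on II from 994044 to 1033991 (39948 bp). The length class of 20 to 40 kb just below the threshold held 652 gaps and 18.9% of the spans, more than any of these classes of stretches.

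**Figure D1:**
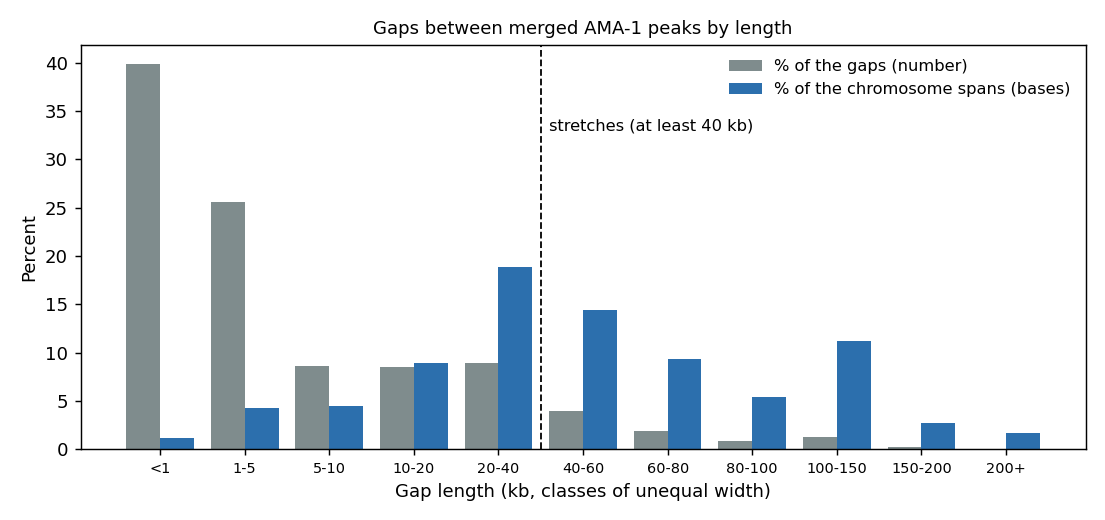
Gaps between merged AMA-1 peaks by length class (x axis, kb), as percent of the number of gaps (grey bars) and percent of the chromosome spans (blue bars). Classes right of the dashed line are the 605 stretches, which were 8.34% of the gaps and covered 44.9% of the spans.

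Chromosomes V and X carried the most and the longest stretches. X had 134 stretches that covered 63.6% of its span, and V had 153 that covered 61.2%. IV had 105 (40.5%), II had 85 (39.0%), III had 69 (28.97%) and I had 59 (25.9%). Of the gaps of each chromosome, stretches were 17.4% on X, 14.4% on V, 7.55% on IV, 7.24% on II, 5.15% on III and 3.89% on I. Merged peaks were also sparser on X (43.6 per Mb) and V (50.9) than on II (76.9), IV (79.7), III (97.4) and I (100.8). X and V together held 53.5% of all stretch bases on 38.5% of the summed spans. The share of X was 1.56 times that of the pooled autosomes (63.6% against 40.9%). The autosomes themselves ranged widely, with a mean of 39.1% ± 13.8 (SD, n = 5 chromosomes), and V was close to X. Both replicates gave this order at its extremes. With the replicate 1 list alone stretches covered 81.7% of X, 75.6% of V and 52.9% of I, and with the replicate 2 list alone 78.0% of X, 77.5% of V and 51.97% of I.

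Stretches were also longer on V and X, by their medians. The median was 71.6 kb on X and 67.4 kb on V, against 59.9 kb on II, 57.8 kb on I, 57.2 kb on IV and 52.5 kb on III. Of 115 stretches of at least 100 kb, 40 lay on X, 40 on V, 14 on IV, 13 on II, 5 on I and 3 on III. At this length minimum the share of X was 2.45 times that of the autosomes. All 6 stretches above 200 kb lay on V (4) or X (2). The shorter gaps had their highest median on X, at 1999 bp. On the autosomes it was 1347 bp on V, 1311 bp on IV, 1462 bp on II, 1298.5 bp on III and 1264.5 bp on I. V thus had short gaps like those of the other autosomes beside many more long ones.

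**Figure D2:**
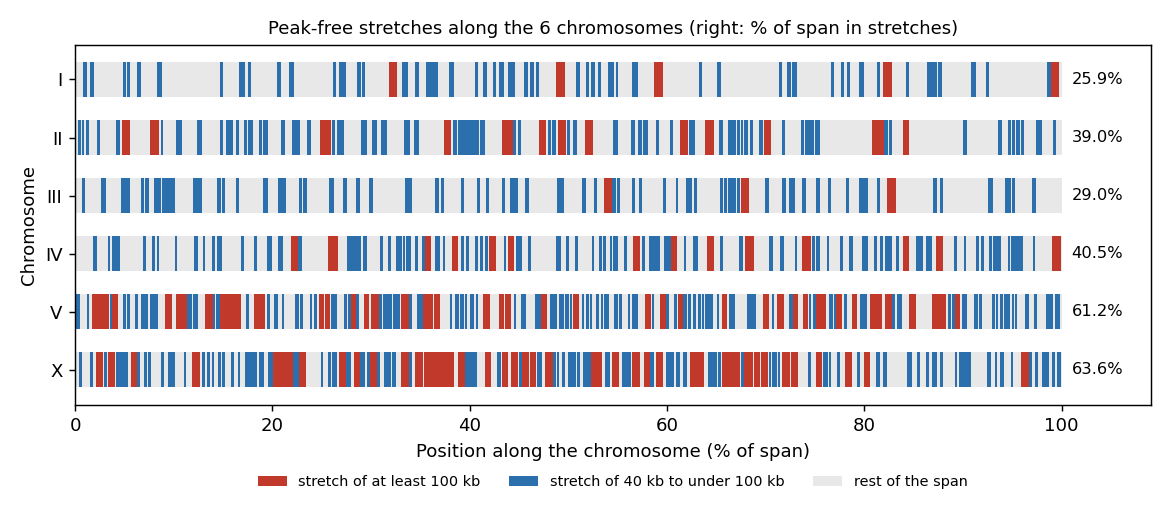
Peak-free stretches along the 6 chromosomes (x axis, percent of the span from left to right; one row per chromosome). Red blocks are stretches of at least 100 kb and blue blocks those of 40 kb to under 100 kb, and the percentages at the right are the share of each span in stretches, from 25.9% on I to 63.6% on X.

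Along the chromosomes, stretches took a smaller share of the outer parts than of the middle, except on V. The parts were 3 equal lengths of each span, 2 outer and 1 middle, and do not follow the genetic arms and centre. Stretches covered 42.3% of the outer parts and 50.2% of the middle parts. The ratio of outer to middle was 0.67 on I, 0.747 on II, 0.748 on X, 0.843 on IV and 0.937 on III. On V it was 1.04, with 65.9% of the left part, 59.8% of the middle part and 57.8% of the right part in stretches. X had the strongest contrast in absolute terms, with 57.2% of its outer parts and 76.5% of its middle part in stretches, and its middle part also had the longest median, 81.8 kb. The left and right parts were not alike. On IV the left part was at 32.2% and the right part at 44.1%, and on II the left part was at 39.6% and the right part at 30.5%.

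Finer divisions showed local exceptions to this shape. When each span was cut into 10 equal parts, numbered from the left, the share in stretches over all chromosomes was highest in part 4 at 51.9% and lowest in part 10 at 37.2%. Part 7 of I was at 7.16%, between parts at 37.3% and 28.2%. X stayed at or above 69.3% in parts 3 to 7 and was at 39.8% in part 9. III was highest at its left end, with 42.1% in part 1 against 29.6% and 31.8% in parts 5 and 6. IV had 48.8% and 46.1% in parts 9 and 10, above the 41.6% and 44.2% of parts 5 and 6. Over 97 complete windows of 1 Mb the share ranged from 5.69 to 83.8%, with a median of 41.95%. No window was without stretch bases, and the 12 windows at or above 70% all lay on V or X. The highest were 12 to 13 Mb on X (83.8%), 6 to 7 Mb on X (82.7%) and 11 to 12 Mb on X (81.3%), and on V 3 to 4 Mb (80.1%). The lowest were 13 to 14 Mb on II (5.69%) and 1 to 2 Mb on I (8.14%).

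**Figure D3:**
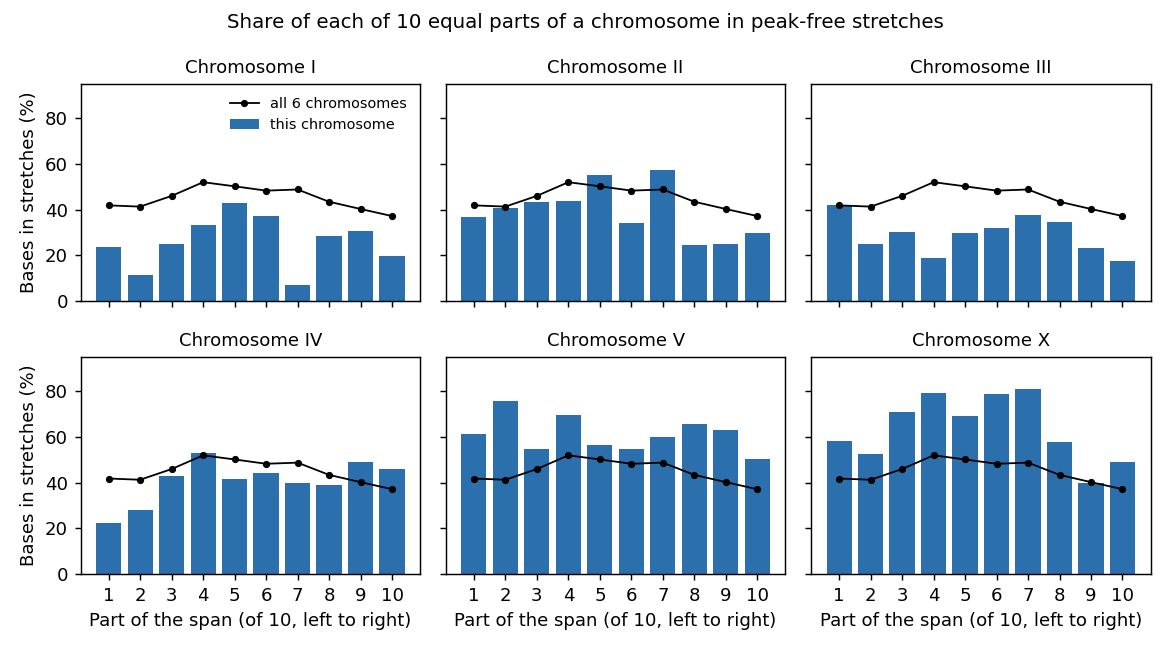
Share of each of 10 equal parts of a chromosome (x axis, left to right) that lay in peak-free stretches (y axis, percent of bases). Bars are the named chromosome and the black line is all 6 together; X reached 81.0% in part 7, while I was at 7.16% there.

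Stretches lay next to one another more often than shorter gaps lay next to a stretch. Of the 605 stretches, 178 (29.4%, 95% Wilson interval 25.9 to 33.2%) had a stretch as the adjacent gap, across 1 merged peak. Among the 1271 gaps of 10 to under 40 kb the share was 19.9% (interval 17.8 to 22.2%), and among all shorter gaps it was 14.3%. The intervals cover counting error only and treat gaps as independent, which neighbours are not. Chromosomes with many stretches had more such neighbours, so the comparison was repeated within each. On X the shares were 38.1% of stretches and 31.1% of gaps of 10 to under 40 kb, on V 39.9% and 34.2%, and on IV 26.7% and 23.7%. On II they were 18.8% and 14.3%, on I 16.9% and 12.0%, and on III 17.4% and 8.57%. The share was higher for stretches on 6 of 6 chromosomes, with intervals that overlapped on each. It depended on the lists used. With the series-wide list alone it was 15.4% of stretches against 12.4% of gaps of 10 to under 40 kb, and with both replicate lists and no series-wide list it was 47.0% against 36.7%. With the replicate 1 list alone it was 51.1% against 41.2%. The contrast was narrower with the replicate 2 list alone, at 49.6% against 45.8%.

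Most runs of adjacent stretches were short. The 605 stretches formed 508 runs, of which 427 were single stretches, 70 were pairs, 8 were triplets, 2 held 4 stretches and 1 held 6. The run of 6 lay on X from 3556427 to 4147118. Its stretches summed to 584.7 kb of 590.7 kb, and the 5 merged peaks inside it covered 6002 bp, or 1.02%. The widest of these 5 peaks was 2296 bp, 3 overlapped a replicate 2 peak, none overlapped a replicate 1 peak, and 2 were in the series-wide list only. The second run by summed length, 3 stretches on V from 364516 to 898262, summed to 526.7 kb and was broken by 2 merged peaks of 7037 bp in all. One of these overlapped a replicate 1 peak and the other a replicate 2 peak. The third run was a pair on V from 3067327 to 3514539 (447.1 kb), split by 1 merged peak of 152 bp that was in the series-wide list only.

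Between 20 and 90 kb out from their edges, the surroundings of stretches, pooled over chromosomes, held fewer peak bases than the whole spans. Each gap is bordered by a merged peak, so the window next to the edge starts inside a peak by construction. In the 10 kb next to a stretch, replicate 1 peaks covered 34.0% and replicate 2 peaks 29.8% of the bases, against 33.3% and 29.4% next to gaps of 10 to under 40 kb. At 10 to 20 kb, coverage in replicate 1 was 16.4% beside stretches and 19.9% beside gaps of 10 to under 40 kb, both above the whole span. Coverage beside stretches was lowest at 40 to 50 kb in all 3 lists, where it was 10.8% in replicate 1, 10.01% in replicate 2 and 9.75% in the series-wide list beside stretches. Beside gaps of 10 to under 40 kb it was 15.6%, 13.6% and 13.4%. The whole spans had 13.6%, 11.9% and 11.8%. By 90 to 100 kb little of the contrast was left, with 13.5% against 13.8% in replicate 1, 12.4% against 12.6% in replicate 2 and 11.98% against 12.4% in the series-wide list. From 20 to 60 kb out, coverage beside stretches was lower than beside gaps of 10 to under 40 kb on 6 of 6 chromosomes in each of the 3 lists. In replicate 1 the contrast was widest on II (11.5% against 17.7%) and narrowest on X (7.65% against 8.56%). These windows can reach into neighbouring stretches, so the values are not separate from the adjacency above. The comparison with the whole spans was made only over all chromosomes together. V and X held 47.4% of the stretches on 38.5% of the spans. Merged peaks covered 12.4% of V and 9.99% of X, against 17.2% of all spans, so the pooled windows weigh chromosomes of low coverage more.

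**Figure D4:**
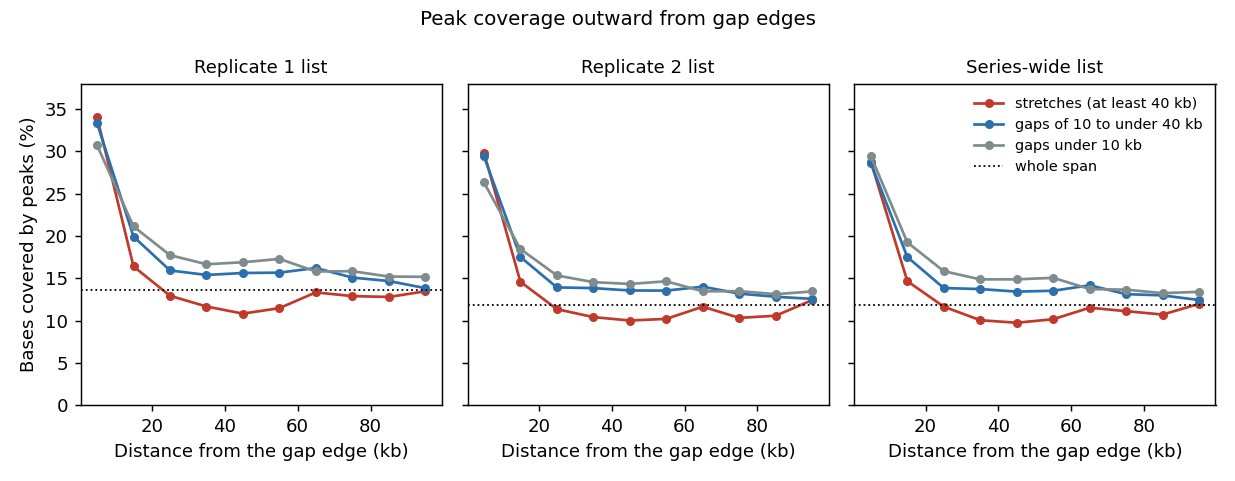
Coverage by AMA-1 peaks (y axis, percent of bases) in windows of 10 kb outward from the edges of gaps (x axis, kb), for stretches (red), gaps of 10 to under 40 kb (blue) and gaps under 10 kb (grey), 1 panel per list, with the whole-span coverage dotted. All classes are near 30% beside the edge, where a merged peak lies by construction. Stretches are lowest at 40 to 50 kb, with 10.8% in replicate 1 and 10.01% in replicate 2.

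The merged peaks that border stretches were more often found in both replicates than the other merged peaks. There were 1113 bordering merged peaks, and 375 of them (33.7%, interval 31.0 to 36.5%) overlapped peaks of both replicates. Of the 6148 merged peaks that border no stretch, 1492 (24.3%, interval 23.2 to 25.4%) did. The ratio of these shares was 1.39. The same lists made the merged peaks and set their borders, and merged peaks are not independent, so the intervals describe counting error and test nothing. In the other direction, 502 bordering peaks (45.1%) overlapped no replicate peak and were in the series-wide list only, as were 3461 of the others (56.3%). The share in both replicates was higher for bordering peaks on 6 of 6 chromosomes. It was 40.7% against 23.8% on I, 36.9% against 22.2% on IV and 33.5% against 22.7% on X. The contrast was smaller on V (31.9% against 26.1%), III (31.1% against 24.96%) and II (30.4% against 25.8%). The median width was 1428 bp for bordering peaks and 424 bp for the others. Among those found in both replicates the medians were 5399 bp and 4764.5 bp, so much of the difference in width went with how many lists held the peak.

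The scores of bordering peaks were higher within the replicate lists and nearly alike in the series-wide list. The deposited score has no stated unit and was compared only within a list. Its highest value was 3233.06 in both replicate lists, and the value 3100 recurred at separate peaks of both. Whether scores were capped is not stated, so a score of 3100 in both replicates does not show equal signal. In replicate 1 the 531 peaks that lay in bordering merged peaks had a median score of 374.2, against 258.65 for the 2307 others. In replicate 2 the medians were 286.4 for 561 bordering peaks and 212.9 for 2282 others. In the series-wide list they were 6.1 for 2569 bordering peaks and 5.86 for 12583 others. Chromosome II went the other way in both replicates, with medians of 300.45 against 309.7 in replicate 1 and 169.3 against 247.8 in replicate 2. The remaining 5 chromosomes had the higher median at the borders in both replicates.

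A subset of merged peaks stood alone, with a stretch on each side. There were 97 of these, and 41 (42.3%, interval 32.9 to 52.2%) overlapped peaks of both replicates, 25 overlapped 1 replicate and 31 neither. Their median width was 2128 bp, against 1323.5 bp for the 1016 merged peaks with a stretch on 1 side. Replicate 1 peaks within the 97 had a median score of 508.1, and 37.0% reached the top 25% of the list. With a stretch on 1 side the values were 368.5 and 30.2%. Replicate 2 peaks within the 97 had a median of 309.7, and 28.1% reached the top 25%. With a stretch on 1 side these were 286.4 and 31.2%, so the share in the top 25% was not higher for the 97 in replicate 2. X held 29 of the 97 and 239 of all 1113 bordering merged peaks, and V held 33 and 273. The widest was on X from 2620021 to 2637837 (17.8 kb), between stretches of 61.1 and 59.1 kb, and it held 10 series-wide peaks. Its highest score was 3100 in replicate 1 and 2217 in replicate 2. The second was on V from 6422462 to 6437912 (15.5 kb), between stretches of 165.5 and 49.5 kb. It was 1 unbroken peak in each replicate (15092 and 15119 bp). Its score was 244.8 in replicate 1, near that list's median of 274.8, and 83.5 in replicate 2, below that list's lower quartile of 99.5. The third, on V from 12490648 to 12506028 (15.4 kb), lay between stretches of 116.2 and 57.5 kb and reached 3100 in both replicates.

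A further comparison asked whether stretches chosen from 1 replicate were also empty in the other, which had no part in choosing them. The replicate 1 list alone had 711 stretches (66.2 Mb) and the replicate 2 list 730 (66.9 Mb). Replicate 2 peaks covered 1.97% of the bases inside replicate 1 stretches and 31.2% of the bases outside them, a ratio of 0.0631. Replicate 1 peaks covered 2.93% of the bases inside replicate 2 stretches and 34.9% outside, a ratio of 0.084. Coverage was lower inside on 6 of 6 chromosomes in both directions. Inside replicate 1 stretches it ran from 1.3% on V to 3.17% on III, and inside replicate 2 stretches from 1.53% on X to 4.34% on III. Most peaks are shared between the replicate lists, so this is another view of the same overlap and no separate support. With 2 libraries this comparison has no replicate of its own and was not tested.

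A minority of the stretches of 1 replicate were wholly empty in the other. Of the replicate 1 stretches, 205 (28.8%, interval 25.6 to 32.3%) held no replicate 2 peak, and of the replicate 2 stretches, 152 (20.8%, interval 18.0 to 23.9%) held no replicate 1 peak. A peak that only reaches past the edge counts here as well. Wholly inside the replicate 1 stretches lay 402 replicate 2 peaks (14.1% of the list), with a median score of 101.4, against 270.6 for the peaks elsewhere. Wholly inside the replicate 2 stretches lay 484 replicate 1 peaks (17.1%), with medians of 111.0 and 368.4. The peaks inside were narrower, at a median of 1813 against 3017 bp in replicate 2 and 2022.5 against 3521.5 bp in replicate 1. Only 3.48% and 3.51% of them reached the top 25% of their list. The highest score inside was nevertheless 3100 in each replicate.

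**Figure D5:**
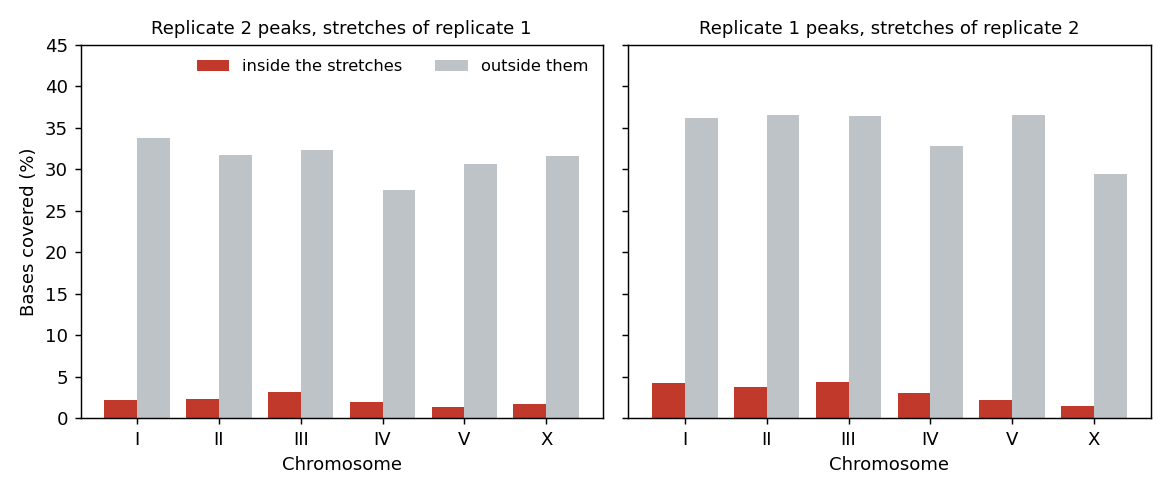
Bases covered by the peaks of 1 replicate (y axis, percent) inside (red) and outside (grey) the stretches of at least 40 kb of the other replicate, by chromosome. Inside the stretches coverage was between 1.3 and 4.34%, and outside it was 27.5% or more on every chromosome in both directions.

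The series-wide list set many of the edges. Of 1210 stretch edges, 550 (45.5%) were set by a series-wide peak, 332 by a replicate 1 peak and 328 by a replicate 2 peak. A series-wide peak lay within 1000 bp of 94.2% of the edges, a replicate 1 peak of 46.9% and a replicate 2 peak of 43.0%. With the 2 replicate lists and no series-wide list there were 698 stretches that covered 59.2 Mb, and 181 of them (25.9%) held no series-wide peak and were stretches of all 3 lists unchanged. The rest held series-wide peaks, with a median of 2 and at most 24 over all 698, and 150 were cut into gaps below 40 kb only. Among the 548 that kept at least 1 stretch, 501 kept 1 and 47 were split into several. Series-wide peaks outside both replicate lists thus formed many of the borders.

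The stretches can be ordered by how firmly the lists agreed on their borders. In 72 stretches both bordering merged peaks overlapped peaks of both replicates, and in 70 of these 72 the peak-free length in each replicate list was at most 1.1 times the stretch itself. In 117 stretches both borders were in the series-wide list only, and 0 of 117 met this tolerance. A border found in both replicates nearly fixes this by construction. Over all 605 it was met by 139 (22.98%), which covered 10.9 Mb, or 10.8% of the spans. Their share was 17.5% on X and 12.7% on V, and on the others it was 9.13% on IV, 8.78% on III, 8.49% on II and 6.75% on I. X, V and IV also stood first over all stretches. As a share of each chromosome's own stretches, the tolerance was met by 23.1% on X and 21.6% on V, against 27.5% on III, 27.1% on I, 21.2% on II and 20.95% on IV. Median lengths differed little between the classes, with 60.5 kb where both borders were in both replicates and 56.9 kb where neither was in any. The median stretch extended to 100.3 kb free of peaks in the replicate 1 list and to 98.4 kb in the replicate 2 list.

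The 12 longest stretches lay on V (6), X (5) and IV (1), and they differed in how sharply they were bounded. The longest, on V from 364516 to 723346 (358.8 kb), began at a merged peak of 1661 bp found in replicate 1 and the series-wide list. It ended at one of 4909 bp found in replicate 2 and the series-wide list. The peak-free length there was 408.9 kb in replicate 1 and 361.8 kb in replicate 2. The second, on V from 3217190 to 3514539 (297.4 kb), and the third, on V from 18132354 to 18427956 (295.6 kb), were bounded on both sides by merged peaks of 148 to 167 bp in the series-wide list only, with scores of 3.53 to 6.15. In replicate 1 the peak-free length around them was 491.9 and 403.6 kb, and in replicate 2 it was 496.1 and 477.9 kb. Those borders mark where a short series-wide peak was called, inside regions that the replicate lists left empty for longer.

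Of the 5 stretches of X among the 12, 2 had borders found in both replicates on each side. The stretch on X from 11041906 to 11293347 (251.4 kb) ran from a merged peak of 17.7 kb to one of 6571 bp, both found in both replicates. The highest scores at its right border were 1653 in replicate 1 and 2106 in replicate 2. Its peak-free length was 255.4 kb in replicate 1 and 251.6 kb in replicate 2. The stretch from 6378428 to 6616102 (237.7 kb) was free over 238.1 kb in replicate 1 and 237.7 kb in replicate 2. At its right border the score was 3100 in both replicates. A merged peak of 3737 bp at its left border separated it from another stretch of 103.1 kb. A further stretch of the 12 followed closely, from 6629321 to 6811656 (182.3 kb). Before it came the right border peak of 9429 bp, a gap of 0.533 kb and another merged peak. Then came a gap of 0.465 kb and a merged peak of 2517 bp that formed the left border of the further stretch. The right border of that stretch was found in replicate 2 only. The other 2 of X among the 12 each had a right border in the series-wide list only. The one from 9269187 to 9467607 (198.4 kb) was free over 288.5 kb in replicate 1 and 238.3 kb in replicate 2. The one from 11615120 to 11800270 (185.2 kb) was free over 335.1 kb in replicate 1 and 552.6 kb in replicate 2.

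The remaining members of the 12 were 3 stretches on V and 1 on IV. On V the longest of these spanned 2136357 to 2366961 (230.6 kb), and the others spanned 7368896 to 7568489 (199.6 kb) and 2740802 to 2918996 (178.2 kb). The one of 230.6 kb was free over 233.6 kb in replicate 1 and 461.7 kb in replicate 2. The stretch on IV from 4470227 to 4650627 (180.4 kb) was free over 199.9 kb in replicate 1 and 180.4 kb in replicate 2. The longest on II ran from 12345614 to 12522227 (176.6 kb), on I from 12325483 to 12466628 (141.1 kb) and on III from 11329743 to 11454023 (124.3 kb). On I the left border was a merged peak of 6366 bp with scores of 1971 in replicate 1 and 1245 in replicate 2. On III the right border was one of 15.2 kb with scores of 1067 and 2882. Each of these 3 lay between 81.4 and 82.7% of the way along its chromosome. Of the 12, those on X from 11041906 and from 6378428 were free in both replicates over at most 1.1 times their length, and the other 10 were free over more than that in at least 1 replicate.

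No gene is named for any stretch, and no sequence is shown, because no genome or annotation in WS220 coordinates was used here.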

How the data were processed

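AMA-1 ChIP-seq peaks from mixed-stage N2 embryos were analysed for 2 ChIP replicates, and the 2 input libraries have no list of their own here. Each replicate list names MACS and the series-wide list MACS v2, per the file headers and source columns. Per the submitters' processing notes, BWA and the ce10 assembly were used. How peaks were called, whether input was used and how replicates were combined is not given in the sources used here. Peak starts and ends were used as deposited, counted from 1 in WormBase WS220 coordinates, per the file headers. The deposited peak score has no unit and was compared only within a list.

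Peaks of the 3 lists that overlapped or touched were merged. Gap length was the next start minus the previous end minus 1. Overlap meant at least 1 bp. Spans ran from position 1 up to the furthest peak end on a chromosome. Intervals for shares are 95% Wilson intervals, and that of the ratio of 2 shares is a log-normal 95% interval. The gap procedure was checked on simulated lists with planted gaps. The members, length minimum and classes were chosen with earlier results of these data known. Shifted or reshuffled gaps were not used, so no p-value is given. Regions named are the 12 longest stretches, the longest of each chromosome, the 3 runs of largest sum, the 3 gaps on each side of the threshold and the 3 widest merged peaks between 2 stretches. Python 3.11.15, numpy 2.4.6, scipy 1.17.1, pandas 2.3.3 and matplotlib 3.10.9 were used.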

Additional observations from a re-analysis of the deposited data

How the results depend on the processing

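With a length minimum of 100 kb there were 115 stretches, and under the other 9 alternatives the number stayed between 442 and 883. The share of the spans in stretches was 54.5% at a minimum of 30 kb, 37.5% at 50 kb and 15.7% at 100 kb. It was 59.1% both for the replicate lists without the series-wide list and without series-wide peaks that overlap no replicate peak, 57.2% for the better-scoring 50% of each list and 46.2% for the series-wide list alone. It was 45.4% without replicate 1 and 45.5% without replicate 2. The share of X over that of the autosomes was 1.41 at 30 kb, 1.7 at 50 kb and 2.45 at 100 kb, 1.35 under both settings that drop series-wide peaks and 1.42 for the better-scoring 50%, so it was above 1 under 10 of 10 alternatives. With 1 replicate list left out it was 1.54 to 1.56. The share of stretch bases in the outer parts, which are 66.7% of the span, was 62.7% as reported, 59.9% at 100 kb, 63.7% under both settings that drop series-wide peaks and for the better-scoring 50%, and 44.6% when the outer parts were the outermost 25% at each end, which are 50% of the span. It was 62.6 to 62.9% with 1 replicate list left out. At 30 kb 883 of 7255 gaps were stretches, and 35.0% of them were next to another. At 50 kb these values were 442 of 7255 and 20.8%, and at 100 kb 115 of 7255 and 14.8%. With the replicate lists alone 698 of 3324 gaps were stretches, and 47.0% of them were next to another. With the series-wide list alone these values were 624 of 15146 and 15.4%. The share of stretches next to another was 47.1% without series-wide peaks outside the replicate lists and 40.6% for the better-scoring 50%. It was 23.3 to 23.4% with 1 replicate list left out, and 39.5% when a stretch within 10 kb counted as next. The part of the gaps that were stretches differed between settings, so these shares do not rank the settings by grouping. The ratio of shares in both replicates for bordering peaks was 1.58 for the better-scoring 50%. Coverage inside over outside the stretches of the other replicate averaged 0.0736 ± 0.0148 (SD, n = 2 directions), 0.0993 at 100 kb and 0.174 for peak starts per Mb. The length minimum sets by definition how many gaps enter. The cause of these changes was not tested. Read depth is unknown, so a stretch without peaks was not shown to be without polymerase. No paired analysis was possible because peaks of the 2 input samples were not analysed here.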
